A study of Mus musculus with 2 samples.

Results

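The 6 genes described here are the neurotrophin genes Bdnf and Ntf3, the Trk receptor genes Ntrk2 and Ntrk3, the p75 receptor gene Ngfr, and Sort1, which encodes sortilin. They were taken by symbol from a list made with earlier results of these data known, without a rule on measured values. They are 6 of 55536 annotated mouse genes. The samples were left cerebral cortex from B6CASTF1/J females, the first-generation cross of C57BL/6J with CAST/EiJ, aged 2 months, and the labels name no treatment. Total RNA was sequenced in 1 group of 2 libraries, called replicate 1 and replicate 2, each prepared from 300.0 ng RNA and carrying ERCC spike-ins. The labels number the tissue samples separately but give both the same donor entry, so the spread between the libraries may be partly technical. There was no second condition, and no test between conditions was possible.

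Neurotrophins are small secreted growth factors that keep neurons alive during development and adjust synapses in the adult brain. They are made as precursors, cut to the mature form by proteases, and bind Trk receptor tyrosine kinases, BDNF binding TrkB (from Ntrk2) and neurotrophin-3 binding TrkC (from Ntrk3). Uncut precursors bind the p75 receptor together with sortilin, a pairing known for driving cell death and synapse weakening, while sortilin also sorts BDNF inside the cell. TrkB and TrkC occur as full-length receptors with a kinase domain and as truncated receptors without one, and truncated TrkB is known as the main astrocyte form.

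The sequences below show where the coding sequences of the receptor forms part, because the transcript shares reported further down rest on these endings. Each run is the sense strand of a GENCODE M21 transcript, with the last 30 bases shared between the forms in lower case and the bases found in the named form in capitals. For truncated Ntrk2 forms the capitals run to the end of the coding sequence, stop codon left out, and for the other forms they cover the first 36 diverging bases. For Ntrk2 (chr13, plus strand, mm10), transcript Ntrk2-201 goes on into the exons of the kinase. Ntrk2-202 ends in the short tail known as T1, and Ntrk2-205 and Ntrk2-209 end in exons that lie further upstream in the gene. A further truncated form, Ntrk2-208, is not printed: after the same shared bases it has 5 coding bases of its own, at chr13:58887192-58887196.
Ntrk2-201 at chr13:58985802-58985837: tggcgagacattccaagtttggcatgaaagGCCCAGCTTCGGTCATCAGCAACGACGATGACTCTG
Ntrk2-202 at chr13:58932023-58932057: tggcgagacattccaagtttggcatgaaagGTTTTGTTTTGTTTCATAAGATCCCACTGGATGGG
Ntrk2-205 at chr13:58878339-58878421: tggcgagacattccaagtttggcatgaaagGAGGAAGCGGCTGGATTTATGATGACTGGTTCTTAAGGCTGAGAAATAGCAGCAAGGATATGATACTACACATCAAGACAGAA
Ntrk2-209 at chr13:58887271-58887344: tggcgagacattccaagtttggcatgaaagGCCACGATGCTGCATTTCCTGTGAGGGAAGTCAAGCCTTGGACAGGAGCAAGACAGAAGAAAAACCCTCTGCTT
All 4 printed forms follow the same shared bases, and from the first capital on each of them has its own coding exon. For Ntrk3 (chr7, minus strand), Ntrk3-201 goes on toward the kinase and Ntrk3-202 ends without it.
Ntrk3-201 at chr7:78260379-78260414: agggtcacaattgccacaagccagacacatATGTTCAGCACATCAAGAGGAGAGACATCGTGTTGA
Ntrk3-202 at chr7:78304391-78304426: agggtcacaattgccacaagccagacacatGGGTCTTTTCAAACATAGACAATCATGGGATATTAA

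The levels of the 6 genes ran over more than 2 orders of magnitude, with the Trk receptors and sortilin above the ligands and the p75 receptor below them. Levels are given as TPM, a share of all transcripts that is scaled by length and can be compared between genes. Ntrk2 averaged 189 ± 10.5 TPM, Sort1 136 ± 5.11, Ntrk3 73.9 ± 3.56, Bdnf 14.9 ± 0.311, Ntf3 1.23 ± 0.240 and Ngfr 0.530 ± 0.0283 TPM (SD, n = 2 each). This order held in each library and in both kinds of deposited quantification, and no neighbours in it overlapped between the libraries. At least 1 TPM in both libraries was reached by 5 of the 6 genes, all but Ngfr, against 58.8% of nuclear protein-coding genes. In bulk tissue, fewer cells of a type and less RNA per cell cannot be told apart.

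**Figure D1:**
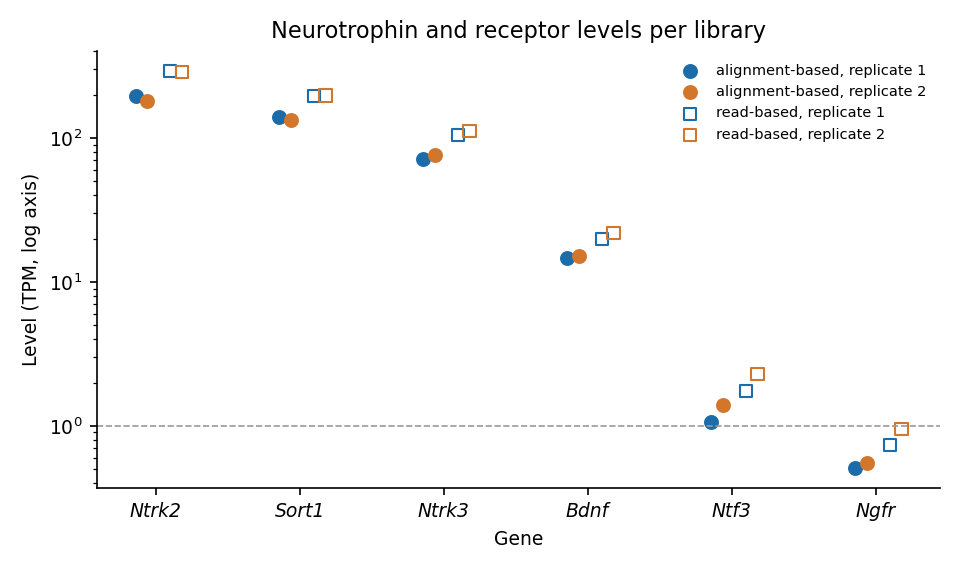
Levels of the 6 genes (TPM, log axis), 1 point per library: filled circles from the alignment-based tables, open squares from the read-based tables, blue for replicate 1 and orange for replicate 2, with a dashed line at 1 TPM. Ntrk2 lies highest and Ngfr lowest in every library, and the read-based value is the higher one for every gene in both libraries.

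Counts and depth were as follows. Expected counts summed to 31196858 in replicate 1 and 32292150 in replicate 2, and nuclear protein-coding genes held 46.7% and 44.1% of TPM. The excitatory neuron markers (5 of 5) and the astrocyte markers (7 of 7) were at 10 TPM or more in both libraries, as fits a cortex label, and none of 14 marker lists had a gene at 0 in both libraries. Markers of neighbouring tissue were present and differed between the libraries: in replicate 1 the choroid plexus list summed to 8.73 TPM, against 37.3 TPM in replicate 2. Most of that was Ttr (transthyretin), the only marker gene called, at 6.12 and 34.29 TPM, while Kl in the same list had 1.58 and 1.81 TPM. In the same order of libraries, the striatal projection neuron list summed to 210 and 164 TPM and the meningeal fibroblast list to 96.2 and 70.5 TPM. By log2 ratio of scaled counts, 5 of 5 striatal genes were lower in replicate 2. Of the 8 meningeal genes, 6 were lower and 2 higher. Igf2 in the meningeal list had 47.52 and 28.84 TPM, while Dcn had 9.03 and 10.71 TPM. Whether neighbouring tissue was in the samples, and what part it had in the results, was not tested.

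Bdnf (ENSMUSG00000048482.14, chr2:109674700-109727007, plus strand) encodes brain-derived neurotrophic factor, made in cortex mainly by excitatory neurons. It had 1176 counts and 14.73 TPM in replicate 1 and 1311 counts and 15.17 TPM in replicate 2. The libraries lay close together, and the level was near the middle of the expressed coding genes: 47.8% of the 12945 nuclear protein-coding genes at 1 TPM or more were lower.

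Ntf3 (ENSMUSG00000049107.13, chr6:126101412-126166910, minus strand) encodes neurotrophin-3, a growth factor for sensory neurons and developing axons. It had 27 counts and 1.06 TPM in replicate 1 and 38 counts and 1.40 TPM in replicate 2. Only 1.04% of detected coding genes were lower. Its level was set by few reads: Bdnf stood 13.9 times above Ntf3 in replicate 1 and 10.8 times above it in replicate 2. All Ntf3 expected counts of the alignment-based tables went to transcript Ntf3-203, whose first exon lies nearest the last exon that the Ntf3 transcripts share. The deposited posterior mean counts of Ntf3-203 were lower, at 13.3 (SD 7.21) in replicate 1 and 28.7 (SD 6.04) in replicate 2. The rest lay on Ntf3-201 and Ntf3-202, so the assignment was uncertain. The read-based tables gave Ntf3-201 a level of 0 in replicate 1 and 0.434 TPM in replicate 2.

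Ntrk2 (ENSMUSG00000055254.15, chr13:58806569-59133970, plus strand) encodes TrkB, the receptor of BDNF. It had 23427 counts and 196.54 TPM in replicate 1 and 24253 counts and 181.73 TPM in replicate 2. It ranked 410 among all annotated genes by mean TPM, and 97.4% of detected coding genes were lower. Ntrk2 stood 13.3 and 11.98 times above Bdnf in the libraries, in TPM.

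Ntrk3 (ENSMUSG00000059146.12, chr7:78175959-78738012, minus strand) encodes TrkC, the receptor of neurotrophin-3. It had 9297 counts and 71.43 TPM in replicate 1 and 10297 counts and 76.46 TPM in replicate 2, and 89.3% of detected coding genes were lower. Ntrk3 stood 67.4 times above Ntf3 in replicate 1 and 54.6 times above it in replicate 2. The receptor to ligand ratio in TPM was thus higher for TrkC than for TrkB in both libraries, with the Ntf3 side resting on the 27 and 38 counts above. Ntrk2 itself was 2.75 and 2.38 times above Ntrk3.

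Ngfr (ENSMUSG00000000120.6, chr11:95568818-95587735, minus strand) encodes p75, the receptor shared by all neurotrophins and their precursors, known in the adult forebrain from cholinergic neurons that project to the cortex. It had 35 counts and 0.510 TPM in replicate 1 and 40 counts and 0.550 TPM in replicate 2, the lowest level of the 6. The 3 basal forebrain cholinergic markers summed to 2.45 and 2.16 TPM, and only Slc5a7, the choline transporter, reached 1 TPM in both libraries, at 1.19 and 1.05 TPM. Of the 8 meningeal fibroblast markers, 7 reached 1 TPM in both. Which cells gave the Ngfr reads was not tested.

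Sort1 (ENSMUSG00000068747.14, chr3:108284082-108361511, plus strand) encodes sortilin, a sorting receptor of the Golgi and the co-receptor of p75 for proneurotrophins. It had 19003 counts and 139.78 TPM in replicate 1 and 19322 counts and 132.55 TPM in replicate 2, and 95.6% of detected coding genes were lower. Sort1 stood 274 and 241 times above Ngfr, so the partners of the proneurotrophin receptor were the second highest and the lowest of the 6 genes.

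None of the 6 genes was called different between the replicates. The call asked for a mean count of 10 or more and for an exact 95% counting interval of the ratio that lay beyond 2-fold as a whole, and 0.307% of the 18562 genes tested were called. The log2 ratio of replicate 2 over replicate 1 was 0.14 for Bdnf (interval 0.02 to 0.25), 0.13 for Ntrk3 (0.09 to 0.17), 0.03 for Ntrk2 (0.0029 to 0.055) and 0.0029 for Sort1 (-0.03 to 0.03). For Ntf3 it was 0.46 (-0.28 to 1.24) and for Ngfr 0.17 (-0.52 to 0.87), so that at this depth a difference of 2-fold in Ntf3 lay within the counting error. In TPM, Ntrk2 was lower in replicate 2 (196.54 and 181.73 TPM), as was Sort1 (139.78 and 132.55 TPM). The direction for these genes thus depended on the measure. The intervals cover counting error only, because they are built from a gene's counts with no term for other differences between the libraries. Reads that carry no molecular identifiers may also be copies of 1 molecule, which would make the intervals too narrow.

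**Figure D2:**
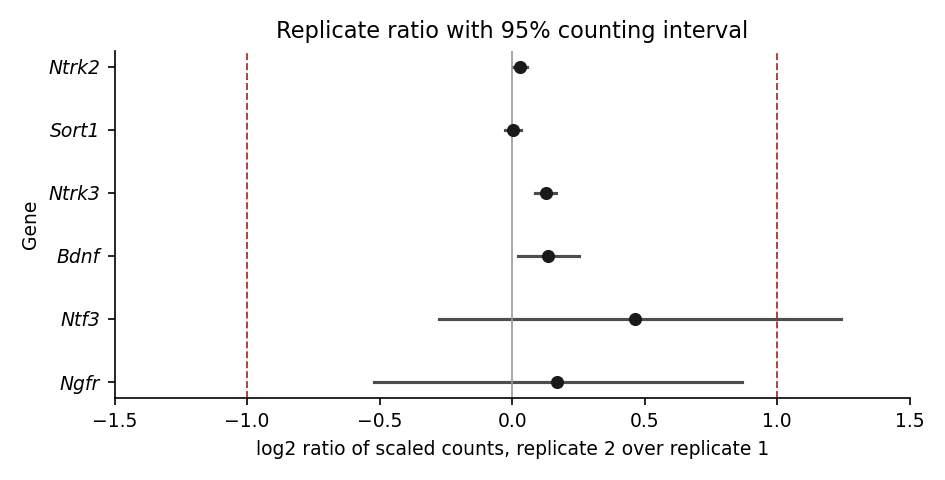
The log2 ratio of scaled counts, replicate 2 over replicate 1, as a point per gene with its exact 95% counting interval as a bar; dashed lines mark 2-fold. All 6 points lie between the dashed lines, and the bars of Ntf3 and Ngfr are the widest.

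Genes that overlap the 6 in the annotation held few counts beside them. Gm9885, antisense to Ntrk3, had 65 and 66 counts, Gm45346, antisense to Bdnf, 8 and 4, and Gm12523, antisense to Sort1, 4 and 4. On the same strand, C630044B11Rik inside Ntrk2 had 182 and 168 counts and Gm43099 inside Sort1 had 166 and 174. Whether the counting used strand is not given in the sources used here, so reads of a gene and its antisense partner cannot be told apart.

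Full-length and truncated TrkB transcripts were about equally abundant in both libraries. The transcripts were classed by annotation alone: full-length forms hold the last 5 coding exons, which encode the kinase, and truncated forms have a complete coding sequence without them. Full-length Ntrk2 (Ntrk2-201 and Ntrk2-207, both of 821 codons) summed to 98.09 TPM in replicate 1, against 93.67 TPM in replicate 2, or 50.7% ± 1.16 of Ntrk2 TPM (SD, n = 2). Truncated Ntrk2 (5 transcripts) summed to 90.69 and 84.53 TPM, or 46.3% ± 0.262 (SD, n = 2). Full-length over truncated was 1.08 and 1.11 in alignment-based TPM and 1.21 and 1.27 in read-based TPM, above 1 in each library. The remaining 3 transcripts have no complete coding sequence and held 3.95% and 1.94%.

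Within truncated TrkB, most of the level was in forms ending in the T1 tail shown above. Ntrk2-202 and Ntrk2-204, both of 476 codons, carry that tail and differ in their untranslated parts. Ntrk2-202 had 44.97 and 44.79 TPM, and Ntrk2-204 had 10.17 and 11.70 TPM. T1 forms made up 60.8% and 66.8% of truncated Ntrk2 TPM in the alignment-based tables and 74.9% and 79.3% in the read-based ones. Ntrk2-205, of 492 codons, with the tail of 83 bases printed above, had 29.16 TPM in replicate 1 and 22.69 TPM in replicate 2, or 32.2% and 26.8% of truncated Ntrk2. The read-based tables gave it 21.5 and 16.7 TPM, 17.1% and 13.9% of truncated Ntrk2, so the 2 quantifications differ on how the truncated level divides between these endings.

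At transcript level, 2 of the 30 Ntrk2, Ntrk3, Bdnf, Sort1, Ntf3 and Ngfr transcripts tested were called, or 6.67%, against 7.14% of all 54503 transcripts tested. The share lay near that of all transcripts. This rule was applied to transcripts after their values had been seen, and it does not cover the uncertainty of assigning reads to transcripts. Both were truncated Ntrk2 forms whose last exons end at the same base: Ntrk2-208 (466 codons) had 296 counts in replicate 1 and 112 in replicate 2, and Ntrk2-209 (489 codons) had 44.6 and 189 counts. The deposited posterior SDs of these counts were 48.9 and 53.3 for Ntrk2-208 and 48.4 and 55.4 for Ntrk2-209. Summed, the pair had 341 and 301 counts, a log2 ratio of -0.20 with an interval of -0.43 to 0.03 that includes 0. The read-based tables gave the sum to Ntrk2-208, at 10.1 and 8.21 TPM, with Ntrk2-209 at or near 0.

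In Ntrk3, full-length and truncated transcripts were again close to each other in TPM, with a larger share left in transcripts that code for neither. Full-length Ntrk3 (Ntrk3-201, Ntrk3-205 and Ntrk3-206) summed to 28.75 and 28.54 TPM, or 38.8% ± 2.07 of Ntrk3 TPM (SD, n = 2). The truncated transcript Ntrk3-202, of 612 codons, had 25.72 and 25.33 TPM, or 34.6% ± 2.04 (SD, n = 2). The ratio of full-length to truncated was 1.12 and 1.13 in alignment-based TPM and 1.09 and 1.11 in read-based TPM. The 16 other transcripts, with no complete coding sequence, held 23.7% in replicate 1 and 29.5% in replicate 2.

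**Figure D3:**
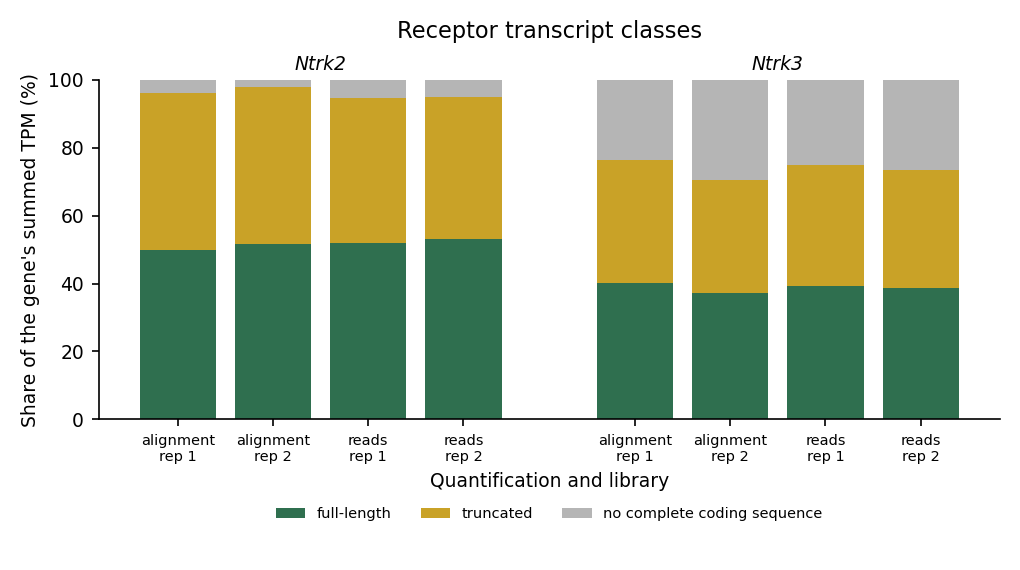
Shares of each gene's summed TPM held by full-length, truncated and other transcripts, for Ntrk2 on the left and Ntrk3 on the right, 1 bar per library and quantification. Truncated forms hold 41.9% to 46.5% of Ntrk2 and 33.1% to 36.0% of Ntrk3 over the 4 bars of each gene.

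The balance moved when reads were counted in place of TPM, because the forms differ in length. Full-length transcripts held 63.1% and 63.4% of Ntrk2 counts and truncated ones 36.1% in both libraries (exact 95% interval 35.5% to 36.7% in each). That interval takes the transcript of each read as known and does not cover the uncertainty of assigning reads to transcripts. For Ntrk3 the count shares were 74.6% and 75.5% for full-length and 21.9% and 20.9% for truncated transcripts. Ntrk3-201 alone is annotated at 19703 bases, against 3977 bases for Ntrk3-202. The statement that both classes were about equal therefore applies to TPM, the per-length scale, and not to counts.

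Some short Ntrk3 transcripts were placed differently by each quantification. Ntrk3-220, of 435 bases and without a coding sequence, had 10.59 and 10.52 TPM in the alignment-based tables, 14.8% and 13.8% of Ntrk3, from 72.8 and 77.4 counts. In the read-based tables it stood at 0 in replicate 1 and 2.32 TPM in replicate 2. Ntrk3-214 had 17.0 TPM in replicate 1 and 0 in replicate 2 in the read-based tables, and Ntrk3-212 had 0.00837 and 16.8 TPM there, while the alignment-based tables gave Ntrk3-212 a level of 0 in both libraries. Ntrk3-204, a transcript that keeps an intron, was steadier, with 3.98 and 3.70 TPM in the alignment-based tables and 5.84 and 5.46 TPM in the read-based ones.

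TrkC has a further kind of form, in which the kinase domain carries an insert that is known to weaken its signalling. The inserts are printed because they alone separate these forms from Ntrk3-201 in the coding sequence. The lower case bases are the last 30 shared before the insert and the capitals are the inserted bases, 42 in Ntrk3-205 (14 codons) and 117 in Ntrk3-206 (39 codons), the second from a pair of exons within the interval given.
Ntrk3-205 at chr7:78204103-78204144: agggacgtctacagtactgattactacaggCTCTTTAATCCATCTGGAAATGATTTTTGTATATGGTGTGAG
Ntrk3-206 at chr7:78204103-78229561: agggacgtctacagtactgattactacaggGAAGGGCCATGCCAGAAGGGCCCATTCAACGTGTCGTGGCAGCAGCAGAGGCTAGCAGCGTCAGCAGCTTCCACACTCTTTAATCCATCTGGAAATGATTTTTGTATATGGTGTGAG
The last 42 inserted bases of Ntrk3-206 are those of Ntrk3-205. Ntrk3-205, of 839 codons, had 10.84 and 9.61 TPM, and Ntrk3-206, of 864 codons, had 2.33 and 2.41 TPM. The insert forms together held 45.8% and 42.1% of full-length Ntrk3 TPM in the alignment-based tables and 42.5% and 39.4% in the read-based ones, against 10.1% and 8.80% of its counts. Their annotated lengths of 2678 and 2774 bases lack most of the untranslated part of Ntrk3-201, so the TPM share depends on that annotation.

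Sort1 was carried mainly by 1 form. Sort1-201, of 825 codons, had 115.29 and 113.37 TPM, and Sort1-203, of 858 codons, had 20.08 and 15.58 TPM. Sort1-203 adds a cassette exon of 99 bases (33 codons), shown in capitals after the last 30 bases before it (plus strand, mm10).
Sort1-203 at chr3:108355472-108355570: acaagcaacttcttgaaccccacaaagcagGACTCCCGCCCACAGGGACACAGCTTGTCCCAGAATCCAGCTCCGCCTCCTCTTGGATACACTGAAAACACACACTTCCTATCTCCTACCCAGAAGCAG
The form with the cassette exon made up 14.8% and 12.1% of the coding Sort1 level in alignment-based TPM, and 20.8% and 20.5% in read-based TPM, the lower share in every library.

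Bdnf transcripts share 1 coding exon and differ in the exon they start in, each behind its own promoter. The annotation holds 11 transcripts with 8 starting exons, numbered I to VIII along the gene. Promoters I and IV are known for their response to neuronal activity, and the exons they begin are spliced to the same coding exon. Exon IV (Bdnf-209, 249 codons) led in alignment-based TPM, with 6.0 TPM in replicate 1 and 4.95 TPM in replicate 2, or 36.7% ± 5.75 of Bdnf TPM (SD, n = 2). Exon VI (Bdnf-205) followed with 3.31 and 3.63 TPM, 22.5% and 23.9%. Exon I (Bdnf-201, 257 codons), whose first exon adds codons in front of the shared ones, had 1.81 and 3.36 TPM, 12.3% and 22.1%. Exon II (Bdnf-207, Bdnf-208 and Bdnf-210) had 1.79 and 2.19 TPM, 12.2% and 14.4%. Exon VII held 8.49% and 4.28%, exon VIII 2.79% and 0.791%, exon III 1.02% and 1.78%, and exon V was listed at 0. The read-based tables put exons III, V, VII and VIII at or near 0 in both libraries, and there exon I, at 18.2% and 29.4%, stood above exon VI, at 13.1% and 20.3%.

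**Figure D4:**
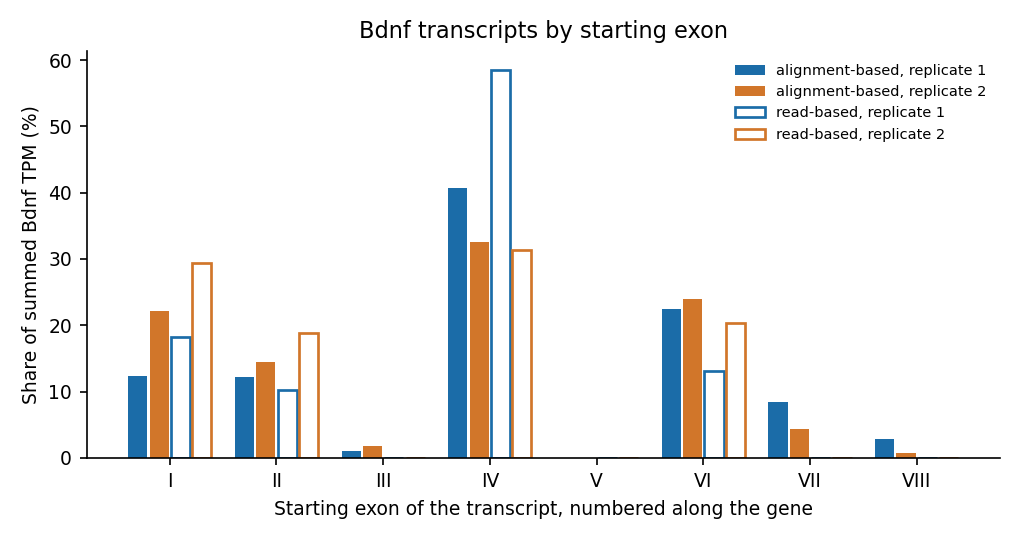
Share of summed Bdnf TPM by the exon in which the transcript starts, filled bars from the alignment-based tables and open bars from the read-based tables, blue for replicate 1 and orange for replicate 2. Exon IV holds 31.4% to 58.5%, and the shares of exons I, II and VI are higher in replicate 2 in both quantifications.

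The estimated counts of the starting exons did not divide the same way in both libraries. Exon I had 154 counts in replicate 1 and 307 in replicate 2, a log2 ratio of 0.97 (interval 0.69 to 1.26), with deposited posterior SDs of 25.8 and 37.5 counts. Read-based counts gave 0.84 (0.60 to 1.08) for exon I, so its direction was the same in both quantifications. Exon II had a log2 ratio of 0.37 (0.05 to 0.69), and read-based counts gave 1.02 (0.71 to 1.34), above that of exon I. Exon IV had 474 and 419 counts, a log2 ratio of -0.20 (-0.39 to -0.0064), and read-based counts gave -0.76 (-0.94 to -0.58). None of the Bdnf transcripts was called, the interval of exon I reaching below 2-fold. In the read-based tables exon IV held 58.5% in replicate 1 and 31.4% in replicate 2, so that the lead of exon IV shrank to a small margin in replicate 2. Of the 8 listed genes that respond to BDNF, many of which neuronal activity also induces, 5 were lower and 3 higher in replicate 2. Their median log2 ratio was -0.04 and 0 were called. The log2 ratios in this list ran from -0.46 (interval -0.56 to -0.36) to 0.09 (0.05 to 0.13), and that of Egr2 was -0.22 (-0.36 to -0.08). The part of these genes in the Bdnf shares was not tested.

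The windows before exon IV and exon I are shown because exon IV led in alignment-based TPM and exon I differed by the most alignment-based counts between the libraries, while in read-based counts exon IV differed most. Each holds the 250 bases before the start in the RefSeq table (GRCm38.p6, plus strand), which matched 6 of the 8 starting exons by position. In the exon IV window the capitals mark CATATG, a variant of the E-box, and CGTCA, a part of the cAMP response element TGACGTCA.
Bdnf exon IV at chr2:109692186-109692435: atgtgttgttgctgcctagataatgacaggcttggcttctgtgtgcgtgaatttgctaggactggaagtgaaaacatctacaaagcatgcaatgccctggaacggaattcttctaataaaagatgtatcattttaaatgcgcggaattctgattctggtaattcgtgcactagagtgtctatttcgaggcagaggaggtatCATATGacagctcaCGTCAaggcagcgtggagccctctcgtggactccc
Bdnf exon I at chr2:109674450-109674699: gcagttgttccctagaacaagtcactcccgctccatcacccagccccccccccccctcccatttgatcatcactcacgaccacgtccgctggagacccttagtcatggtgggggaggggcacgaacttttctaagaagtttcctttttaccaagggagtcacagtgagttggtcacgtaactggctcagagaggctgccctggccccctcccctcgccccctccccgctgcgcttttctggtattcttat
The search covered both strands. It looked for the full cAMP response element, which always also holds the shorter CGTCA, and for the E-box variant CATATG. Also searched were CACGTG, an E-box that USF factors can bind, and TATAAA, the TATA box. Which E-box forms USF factors bind here was not tested. The variant CATATG lay 49 bases and CGTCA 35 bases before the exon IV start, both on the plus strand. CATATG also lay 189 bases before the start of exon V, which was listed at 0 in both libraries. Of all 32851 windows of this length, 3.46% hold the E-box variant and 17.8% the shorter part of the response element. The full element is in 1.55%, CACGTG in 6.02% and the TATA box in 12.4%. The exon I window holds none of these letters, at 58.0% G and C against 45.6% for exon IV, each with 9 CG pairs. Such matches describe the letters only.

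Around the 6 genes, most of the listed pathway genes were expressed. Of 65 further genes in 6 lists, 60 reached 1 TPM in both libraries, against 58.8% of nuclear protein-coding genes. The lists were chosen with earlier results of these data known. Of 62 pathway genes tested between the replicates 0 were called, against 0.307% of all genes tested. Among the other ligands and receptors, 5 of 7 reached 1 TPM, with list medians of 17.7 and 16.2 TPM. The sorting receptors led that list: Sorl1, a sortilin relative that also handles amyloid precursor, averaged 101 ± 1.61 TPM, Sorcs3 17.7 ± 1.64 and Sorcs2 17.3 ± 0.742 TPM (SD, n = 2 each). Ntf5, the second ligand of TrkB, was lowest, with 2 counts in each library, under the floor of 3 counts.

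The genes that cut, sort and release the precursors were led by Cpe, whose product carboxypeptidase E sorts proBDNF into regulated vesicles, at 851 ± 25.4 TPM (SD, n = 2). Pcsk2, a proprotein convertase of secretory granules, averaged 115 ± 1.92 TPM and Hap1, a huntingtin partner in vesicle transport, 86.2 ± 4.34 TPM (SD, n = 2 each). Of the 14 genes of this list, 11 reached 1 TPM in both libraries. The extracellular protease gene Mmp3 had 0 counts in both libraries, where the floor of 3 counts stands for 0.0862 TPM in replicate 1 and 0.0805 TPM in replicate 2.

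All 18 adaptor and signalling genes downstream of Trk receptors reached 1 TPM in both libraries, with medians of 37.7 and 37.2 TPM. Kidins220, a scaffold bound by Trk receptors, averaged 139 ± 13.8 TPM and Shc3, the neuronal Shc adaptor, 102 ± 2.45 TPM (SD, n = 2 each). Sh2b2, an adaptor of the SH2B family, was lowest at 4.32 ± 0.445 TPM (SD, n = 2).

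The 9 genes for co-receptors and adaptors of p75 all reached 1 TPM, with medians of 60.7 and 59.0 TPM, beside Ngfr itself at 0.510 and 0.550 TPM. Lingo1, which joins p75 in the receptor for myelin inhibitors, averaged 212 ± 8.49 TPM, Maged1, an adaptor that binds p75, 195 ± 11.4 TPM and Arhgdia, whose product binds p75, 131 ± 4.33 TPM (SD, n = 2 each). Nradd, a p75 relative, was lowest at 1.41 ± 0.170 TPM (SD, n = 2). These proteins also act apart from p75.

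All 10 regulators of Bdnf transcription and all 8 genes that respond to BDNF reached 1 TPM in both libraries. Mef2c, a transcription factor of excitatory neurons, averaged 261 ± 38.9 TPM, Mef2d 97.8 ± 2.33 TPM and Crtc1, the coactivator of CREB, 65.4 ± 0.290 TPM (SD, n = 2 each), and Rest, a repressor of neuronal genes, was lowest at 1.71 ± 0.212 TPM (SD, n = 2). Among the responsive genes, Arc, which acts in synaptic plasticity, averaged 224 ± 10.3 TPM, Homer1, a synaptic scaffold, 201 ± 3.90 TPM and Vgf, a secreted neuropeptide precursor, 189 ± 2.37 TPM (SD, n = 2 each). Egr2, an immediate early transcription factor, was lowest at 14.5 ± 1.97 TPM (SD, n = 2). These genes respond to other signals too, so their levels are no measure of BDNF.

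**Figure D5:**
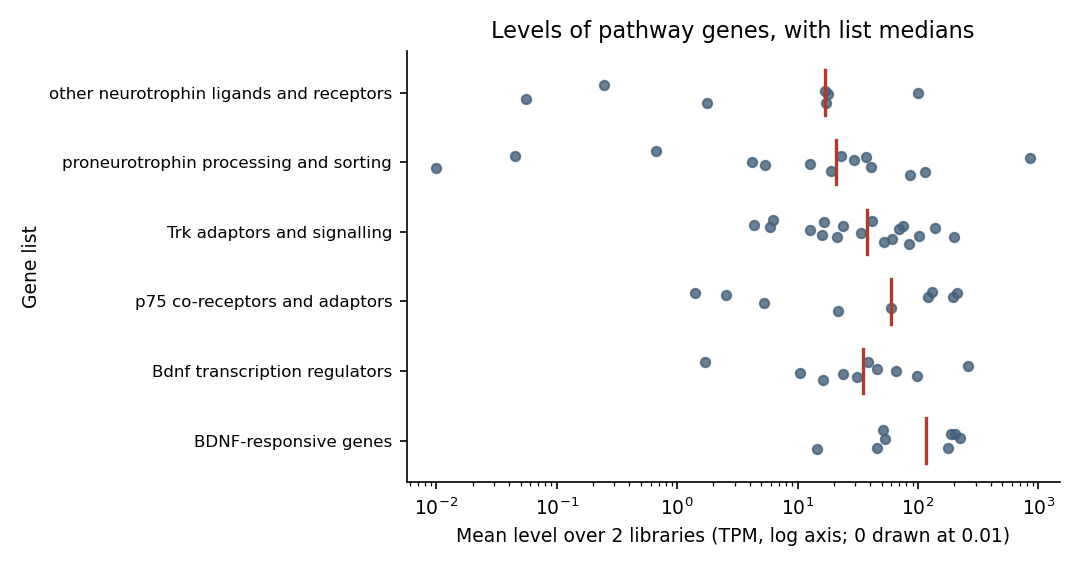
Mean level over the 2 libraries (TPM, log axis, with 0 drawn at 0.01) of each gene in the 6 pathway lists, 1 point per gene, with a red line at each list's median. Most points lie above 1 TPM, and those below it include Ntf5 and Mmp3.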

How the data were processed

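Total RNA was sequenced from 2 libraries of 1 group. The authors deposited expected counts with TPM for genes and transcripts, made from transcriptome alignments (alignment-based), and estimated counts with TPM for transcripts, made from the reads with an index (read-based), on mm10 with GENCODE M21, per the file headers and each library's file list. The tools behind these tables are named in none of the sources used here. The alignment-based transcript tables also hold a posterior SD of each count, per the file headers, which covers the assignment of reads to transcripts. TPM has the same total in each table and counts spike-ins in it. The reference is that of C57BL/6J, so reads from CAST/EiJ alleles were counted against it.

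Gene expected counts of the 6 genes were whole in both libraries; other counts were rounded. TMM scaling (edgeR 4.0.16 under R 4.3.3) gave replicate 2 a size of 1.01 times replicate 1. The log2 ratio of replicate 2 to replicate 1 had a prior count of 0.5, with its exact 95% interval by the Clopper-Pearson method. Transcript values were summed for read-based gene values. The interval rule was tested on simulated counts drawn with sampling error only, so that test does not cover further differences between libraries. The libraries' counts differed by more than the sampling of reads (chi-square 65199.7 on 12842 degrees of freedom), so they were not merged as 1 library; this does not show that they came from separate animals. With 1 group, no p-value is printed. Depth limits the precision: genes with few counts, such as Ntf3 and Ngfr, have wide intervals.

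Alternatives were DESeq2 1.42.0 size factors, total-count scaling, no filter, a 1.5-fold limit, the read-based tables, TPM over nuclear protein-coding genes, counts in place of TPM, protein-coding transcripts only, a limit of 10 TPM and each library alone. Named were all 6 genes, their transcripts with at least 5% of the gene's TPM, and of each list the 3 highest genes, the lowest and any called, except genes that are not reported here; Kl, overlapping genes and transcripts below 5% were named after their values were seen. The 6 genes, the 65 pathway genes in 6 lists and the 14 marker lists were chosen with earlier results of these data known. Sequences come from GENCODE M21 and from RefSeq (GRCm38.p6).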

Additional observations from a re-analysis of the deposited data

How the results depend on the processing

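None of the 6 genes was called different between the replicates under any of the 5 alternatives (DESeq2 size factors, total-count scaling, no filter, a 1.5-fold limit, read-based counts). Of the 30 alternative log2 ratios, 29 kept their sign, the exception being Sort1, at -0.03 with total-count scaling against 0.0029, and the largest shift was 0.18, for Ngfr. All of these were ratios of counts, whereas in TPM Ntrk2 and Sort1 were lower in replicate 2. At 1 TPM in both libraries stood 5 genes in the read-based tables and in each library alone, 6 on the protein-coding TPM scale, where Ngfr had 1.09 and 1.25 TPM, and 4 at a limit of 10 TPM. The truncated share of Ntrk2 was 46.3% as reported, 42.4% in read-based TPM, 36.1% of expected counts and 47.7% of protein-coding transcripts. That of Ntrk3 was 34.6%, against 21.4% of expected counts and 46.1% of protein-coding transcripts. The share of the leading Bdnf transcript was 36.7%, against 44.9% in read-based TPM. Without replicate 1 or replicate 2 these shares ranged from 46.1% to 46.5%, 33.1% to 36.0% and 32.6% to 40.8%. Counts weight long transcripts and the restriction leaves out transcripts of other annotated types, by construction; the cause of the read-based shifts was not tested. No paired analysis was possible because the samples form 1 group. Precision is limited by 2 libraries and, for Ntf3 and Ngfr, by depth.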

Other observations

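Read-based TPM was higher than alignment-based TPM for each of the 6 genes, in means over both libraries by 1.40 times for Bdnf to 1.64 times for Ntf3. The median over the 12945 detected nuclear protein-coding genes was 1.59. Levels should therefore be compared within a kind of table and not across them.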
